A study of Caenorhabditis elegans with 4 samples.

Results

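Chromosome X of Caenorhabditis elegans carried 942 of the 6048 distinct regions at which the transcription factor LSY-2 was found by chromatin immunoprecipitation followed by sequencing (ChIP-seq) in fed larvae of the first stage (L1). The members are all entries of the authors' combined peak list that lie on X, with an interval that is listed more than once counted once; the list has 944 such entries, and 2 intervals appear 2 times. The 5106 distinct regions on the 5 autosomes stand beside them for comparison. The worms were hermaphrodites of strain OP367, grown at 20 °C on bacteria. They carry the mutation unc-119(ed3) and, in the insertion wgIs367, both a functional unc-119 gene and lsy-2 fused to TY1, EGFP and FLAG tags. Antibodies against the fluorescent protein collected LSY-2 from chromatin fixed with 2% formaldehyde. All samples come from this 1 strain, made by bombardment, and from whole larvae, so a region says nothing of the cells in which it was bound. There are 2 ChIP samples, replicates 1 and 2, and 2 input samples that are not analysed here. Nothing in the labels says whether the replicates were separate cultures.

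LSY-2 is a zinc-finger protein best known for the ASE taste neurons, where it is needed on the left side for the microRNA lsy-6 and so for the difference between the left and right cell. The lsy-2 gene itself lies on X, per RefSeq. Hermaphrodites have a pair of X chromosomes, and a dosage compensation complex lowers transcription from both. X is poor in genes used by the germline. On the autosomes a central part, rich in widely used genes, is flanked by arms with more recombination; X shows that division weakly. Regions are given here by WS220 coordinates, the build named in the file headers. They were not assigned to genes, as the gene positions used for names belong to a later build (WBcel235), and no WS220 sequence was used here.

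The strength of a region is given by its rank, which is the number in the authors' peak name, 1 being the best. The authors' score was less useful for this, since 651 of the 942 X regions tied at its highest value of 3.95 in the combined list. Below the tie it did not fall steadily with rank. The X regions at combined ranks 4463 and 4692 scored 3.475 and 3.497. Without read counts in the lists the sequencing depth is unknown, and no interval over reads can be given. Intervals around shares are 95% Wilson intervals, and those around differences of shares are Newcombe intervals unless another is named. Both cover counting error over regions, and dependence between neighbouring regions would make them wider. For comparisons between strong and weak regions the combined list was divided by rank into 4 groups of equal size, called rank groups 1 (best) to 4. Each replicate list, which has 30000 entries, was cut to the length of the combined list where its best entries are meant.

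The best region on X lay at 15840984 to 15841427. It ranked 19 in replicate 1 and 7 in replicate 2, and 11 in the combined list. The next, at 2242740 to 2243184, ranked 22 and 37 in replicates 1 and 2 and 22 in the combined list. After these came the region at 2089371 to 2089876, with ranks 59 and 96 in the replicates and 74 in the combined list. The next was at 4711897 to 4712267, with ranks 107 and 72, and 85 in the combined list. Those 4 were all that X had among the 100 best combined regions.

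The 15 best X regions reached combined rank 211, by which point 196 autosomal regions had been passed. The following 4 lay at 768102 to 768453 (ranks 99 and 115 in replicates 1 and 2), 2688540 to 2688880 (136 and 130), 11093839 to 11094379 (145 and 141) and 5840978 to 5841435 (139 and 169). Then came 12362844 to 12363319 (163 and 168) and 13700506 to 13701014 (160 and 203). The last 5 of the 15 were at 2996748 to 2997433 (162 and 252), 6091963 to 6092329 (189 and 216), 6296236 to 6296850 (210 and 191), 16056278 to 16056741 (181 and 240) and 9465537 to 9466084 (198 and 270). Every one of the 15 was within the best 210 of replicate 1 and the best 270 of replicate 2. The strongest X regions were spread along the chromosome, and 3 parts of equal length held 7 (left), 4 (central) and 4 (right). Their widths ran from 341 to 686 bp around a median of 464 bp. Replicates 1 and 2 placed their centres within 56.5 bp of each other, with a median distance of 10 bp. The nearest other combined region was between 1104 and 30857 bp away, with a median of 4258 bp.

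The share of X among LSY-2 regions changed with rank, and mainly over the first 3000 ranks. X spans 17.7% of the nuclear genome as covered by the lists. It held 4% of the 100 best combined regions (4 of 100, interval 1.57 to 9.84), 8.75% of ranks 101 to 500 (6.36 to 11.9), 11.2% of ranks 501 to 1000 (8.74 to 14.3) and 9.84% of ranks 1001 to 1500 (7.52 to 12.8). In ranks 1501 to 3000 the share was 16.4% (14.6 to 18.4), and in ranks 3001 to 4500 and 4501 to 6000 it was 18.05% (16.2 to 20.1) and 18.3% (16.4 to 20.3). The share also rose past rank 1500 in each replicate. Replicate 1 had 10.3% of ranks 1001 to 1500 on X (7.96 to 13.35) and 16.2% of ranks 1501 to 3000 (14.4 to 18.2). Replicate 2 had 11.5% (9.01 to 14.7) and 14.7% (13.0 to 16.6) in the same bands. The intervals of those 2 bands were apart in replicate 1 and overlapped in replicate 2. In ranks 3001 to 4500 the share was 17.3% in replicate 1 (15.4 to 19.3) and 18.1% in replicate 2 (16.2 to 20.1). The rise in replicate 2 was thus more gradual and went on past rank 3000. From rank 6001 to 30000, a range the combined list mostly leaves out, X made up 15.5% to 17.5% of every band in both replicates.

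**Figure D1:**
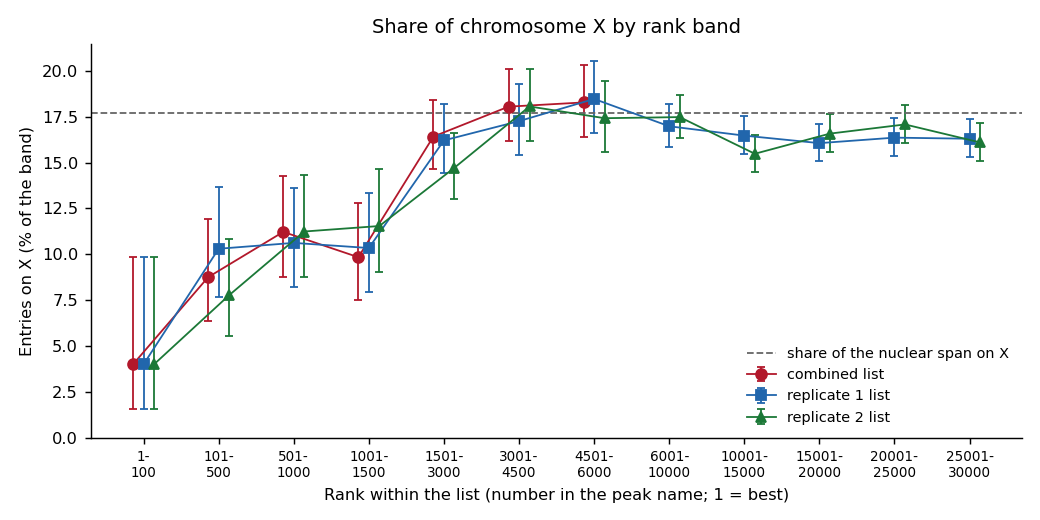
Percentage of entries on X in bands of rank (horizontal axis, 1 is the best) in the combined list and in each replicate list; bars are 95% Wilson intervals, and the dashed line is the share of the nuclear span on X, 17.7%. The share is 4% among ranks 1 to 100 in all 3 lists and lies between 14.7% and 18.5% in every band from rank 1501 on; the last combined ranks, beyond 6000, are not drawn.

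X and the autosomes thus differed in how many of their regions were strong. Rank group 1 holds 25% of all combined regions by construction. On X the share in it was 144 of 942 (15.3%), against 26.8% of autosomal regions, a difference of -11.5 percentage points (interval -14.0 to -8.81). The autosomes ranged from 23.9% to 28.4%, so X was below each of them. In replicate 1 the shares were 16.2% on X and 26.6% on autosomes, and in replicate 2 they were 16.6% and 26.4%; again the group is 25% of all entries in each list. The highest score is a far looser cut than rank group 1, so its gap is not a like comparison. On X 69.1% of regions had the highest score, against 74.3% on autosomes and 73.5% of all regions, a difference of -5.24 points (-8.48 to -2.12). In rank group 1 X had 8.13 regions per Mb, against 16.6 on the autosomes, where single values ran from 9.80 on V to 23.4 on III. In rank groups 2, 3 and 4 X had 14.2, 15.5 and 15.4 per Mb, against 15.2, 15 and 15.1 on the autosomes. The lower number of X regions per Mb in the whole list, 53.2 against 61.9, lay almost wholly in rank group 1. Chromosome V was sparser than X over the whole list, with 41.1 per Mb. It was also sparser in rank groups 2, 3 and 4, with 10.3, 10.4 and 10.6 per Mb.

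Regions on X were found again in the replicates about as often as autosomal ones. Of the 942 X regions, 98.8% overlapped an entry of both replicates by at least 1 bp (interval 97.9 to 99.4), against 98.96% of autosomal regions and 98.9% of all regions. The lists name IDR (irreproducible discovery rate) as their source; it selects peaks whose ranks match between replicates, so this overlap is partly selection. A stricter count asked that the best partner be among the best entries of both replicates, cut to the length of the combined list. On X 69.5% of regions passed, against 73.8% on autosomes and 73.1% of all regions, a difference of -4.28 points (-7.52 to -1.18). X was below the lowest autosome, which had 71.4%.

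The replicate lists can also be compared without the combined list. Among the best entries of each list, cut as above, 72.6% of those on X in replicate 1 overlapped one of replicate 2, against 76.3% on autosomes and 75.7% of all nuclear entries. The difference was -3.66 points (-6.83 to -0.656). In the other direction 74.2% of replicate 2 entries on X overlapped, against 74.95% on autosomes and 74.8% of all, a difference of -0.749 points (-3.92 to 2.25). Among these best entries the lower agreement of X was thus seen from replicate 1 and was not detectable from replicate 2. Over all 30000 entries the shares were 59.05% on X and 60.8% on autosomes in replicate 1, where 60.5% of all entries overlapped, a difference of -1.76 points (-3.28 to -0.261). In replicate 2 they were 56.3% and 58.55%, with 58.2% of all, a difference of -2.22 points (-3.74 to -0.701). Over all entries X was thus below the pooled autosomes from both. The lowest single autosome was below X in each, with 58.87% in replicate 1 and 55.75% in replicate 2. Within the best 6000 ranks the shares of X and autosomes were close at equal rank. All 51 X entries among ranks 1001 to 1500 of replicate 1 overlapped an entry of the other list, and so did all 57 of replicate 2. Of ranks 4501 to 6000, 89.1% of the X entries of replicate 1 did so, against 90.7% on autosomes, and 89.66% of those of replicate 2, against 89.65%. Among weaker entries X lay below every autosome in 1 of 5 bands in replicate 1 and in 3 of 5 in replicate 2. The gap to the lowest autosome was widest in ranks 20001 to 25000 of replicate 2, with 35.6% on X and 37.6% there, and in ranks 10001 to 15000 of replicate 1, with 55.5% on X and 57.3% there. In ranks 6001 to 10000 of replicate 2 X was above every autosome, with 75.5% on X and 75.3% on the highest.

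Over the 931 X regions with a partner in both lists, Spearman's rho between the replicate ranks was 0.70, against 0.79 to 0.81 on the autosomes taken one by one. These are descriptions over regions of the same 2 libraries, and the authors' method used the ranks to choose the regions. Within rank group 1 rho was 0.78 on X (n = 144) and 0.86 on autosomes (n = 1366). In rank groups 2, 3 and 4 it was 0.124, -0.355 and -0.483 on X, against 0.0942, -0.366 and -0.535 on autosomes. These groups are cuts of the combined rank, which follows both replicate ranks. Low or negative values can come from such a cut itself, so they do not show that the replicates rank weak regions in opposite orders. The median difference between the 2 ranks was close, at 1.36-fold on X and 1.35-fold on autosomes. They differed by over 2-fold for 16.8% of X regions, against 15.4% on autosomes and 15.6% of all, a difference of 1.36 points (-1.12 to 4.07). Partner centres were a median of 33 bp apart on X and 25 bp on autosomes. Within rank group 1 these distances were 14 bp on X and 10.25 bp on autosomes, and within rank group 4 they were 55 and 58 bp.

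**Figure D2:**
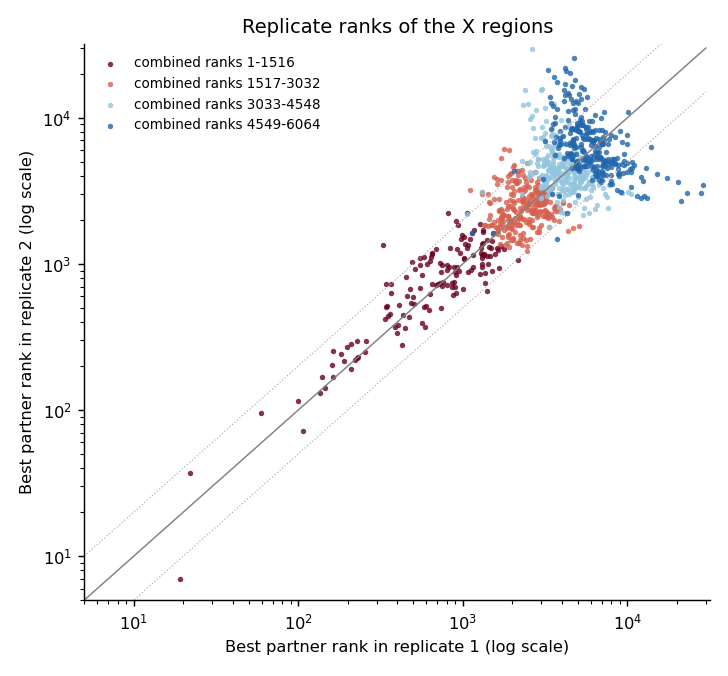
Rank of the best partner in replicate 1 (horizontal, log scale) and replicate 2 (vertical, log scale) for the 931 X regions that have both, coloured by rank group of the combined list; the solid line marks equal ranks and the dotted lines a 2-fold difference. The points narrow toward the best ranks, where 6 of the 100 best X regions lie outside the dotted lines.

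A few strong X regions were ranked unlike by the replicates. Among the 100 best on X, which reach combined rank 1077, the ranks differed by a median of 1.25-fold and by over 2-fold for 6. No autosomal count at equal rank stands beside this. Over rank group 1 the median was 1.27-fold on X and 1.24-fold on autosomes. Among the 100 best on X, the largest difference was at 14708195 to 14708457, which ranked 327 in replicate 1 and 1346 in replicate 2, a ratio of 4.12. The best X region followed, with a ratio of 2.71. Next were the regions at 6742111 to 6742366 (ranks 1409 and 649 in replicates 1 and 2), 16929426 to 16929924 (343 and 729) and 10770921 to 10771384 (489 and 1038). The disagreement did not run in 1 direction, since replicate 1 ranked 58 of the 100 regions better and replicate 2 the other 42. The 11 X regions that lacked a partner in one of the lists were weaker. They had combined ranks of 2390 to 5895, and 7 of them lacked a partner in replicate 1 and 4 in replicate 2. The 3 last-ranked X regions, at 1456785 to 1457134, 16404690 to 16405039 and 9803554 to 9803903, had combined ranks of 6048, 6056 and 6062. Their partners ranked 3064 and 3801, 9946 and 7628, and 7109 and 7334 in replicates 1 and 2. The partners of the first of these are also those of the better region that overlaps it, at 1456578 to 1456927 (combined rank 3331).

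The number of LSY-2 regions in a stretch of X varied less than it did on each autosome. The 17 whole 1 Mb bins of X held 33 to 76 regions each, with a mean of 52.6 ± 11.1 (SD over bins). The coefficient of variation over bins, the SD divided by the mean, was 0.210 on X. On the autosomes it was 0.365 on I, 0.364 on II, 0.289 on III, 0.282 on IV and 0.508 on V. Chromosome IV has nearly the same mean, 54.7 per bin, and its bins held 27 to 84. X was also lowest in each replicate. Replicate 1 gave 0.212 on X, against 0.292 to 0.524 on the autosomes, and replicate 2 gave 0.217 on X, against 0.290 to 0.487. In 500 kb bins the value was 0.256 on X and at least 0.338 on each autosome. No test was made of this difference, since X is a single chromosome and its bins are not replicates.

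**Figure D3:**
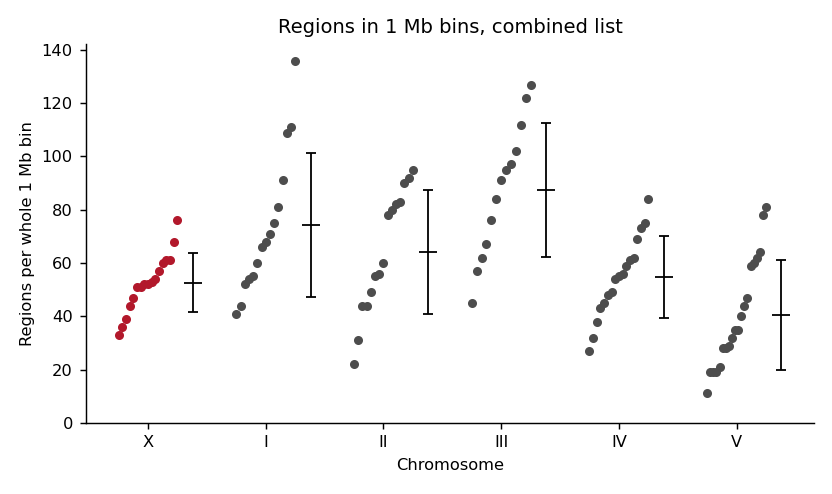
Number of combined regions in each whole 1 Mb bin (vertical axis) by chromosome; each point is a bin, sorted by value within its chromosome, and the bar beside the points is the mean ± SD over bins. The 17 bins of X lie between 33 and 76, the narrowest range of the 6 chromosomes.

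The fullest bins of X were the 1 Mb from 13000001 to 14000000, with 76 combined regions, and that from 4000001 to 5000000, with 68. The bins that start at 2000001 and at 12000001 followed with 61 each. The emptiest were the first, with 33, the bin that starts at 9000001, with 36, and the bin that starts at 11000001, with 39. The replicates, cut to the length of the combined list, gave close values for some of these and not for others. The fullest bin held 75 and 69 entries in replicates 1 and 2, the second fullest 69 in both, and the emptiest 39 and 34. The bin that starts at 2000001 held 59 in replicate 1 and 72 in replicate 2, where it was the fullest, and that at 12000001 held 61 and 51. Over the 17 bins Spearman's rho between the replicates was 0.742 on X, against 0.925 to 0.973 over the bins of each autosome. The counts of X bins also spanned the narrowest range, which can lower rho, and the part of this was not tested. The number of strong regions followed the total in some bins and not in others. Of the 76 regions from 13000001 to 14000000, 7 were in rank group 1, against 15 of 57 in the following bin, from 14000001 to 15000000, which had the most. The bin that starts at 2000001 had 11 of 61 in that group, and the bin that starts at 9000001 had the fewest, 3 of 36.

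A sparse stretch of X lay where the autosomes were densest. With each chromosome divided into 10 equal parts, X had 40.6 regions per Mb in the sixth and again in the seventh part. The autosomes averaged 87.9 and 87.5 per Mb there, and the lowest of them had 62.3 and 53.5. Both replicates showed the low values on X, with 42.3 and 42.9 per Mb in the sixth part and 38.9 in the seventh part in each. The first part of X was nearly as sparse, with 42.3 per Mb, and 44.6 and 40.6 in replicates 1 and 2. There the autosomal mean was also low, at 45.7. In the eighth part X reached 72.2 per Mb, its highest, against an autosomal mean of 61.2. In the ninth part X had 60.96, against a mean of 40.3 and a highest autosome of 60.2; in replicates 1 and 2 it had 60.96 and 51.4, below the highest autosome with 63.1 and 61.7. With X divided into 3 equal parts, the right part held 358 regions (60.6 per Mb), the left 303 (51.3 per Mb) and the central 281 (47.6 per Mb). The density in the right part over that in the left was 1.18, and it was 1.15 in replicate 1 and 1.02 in replicate 2. The density in the central part over that of the outer parts was 0.850 on X (interval 0.740 to 0.978, from Poisson errors of the counts), and it was 1.37 to 1.98 on the autosomes. Replicates 1 and 2 gave 0.885 and 0.899 on X, for which no interval was made. The 1 Mb bin counts of X had a variance of 2.32 times their mean, above the Poisson value. The Poisson interval of the ratio on X is thus too narrow. Over all 30000 entries the contrast was smaller, with 0.946 on X and 1.02 to 1.53 on the autosomes in replicate 1, and 0.919 on X and 1.01 to 1.41 in replicate 2. The ratio was 0.823 among the X regions of rank group 1 and 0.855 among the rest.

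**Figure D4:**
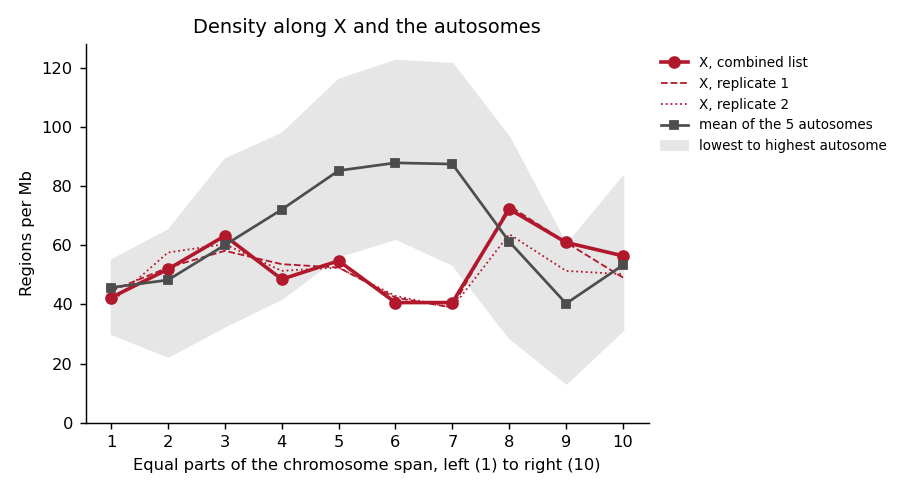
Regions per Mb (vertical axis) in each of 10 equal parts of the chromosome span (horizontal axis) for X in the combined list and in the best entries of each replicate, beside the mean and the range of the 5 autosomes. X falls to 40.6 per Mb in the sixth and seventh parts, where the autosomal mean is 87.9 and 87.5.

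X had 23 distances of over 100 kb between neighbouring centres, against 8 on I, 10 on II, 6 on III, 20 on IV and 39 on V. The longest on X was 211803 bp, and those on the autosomes ran from 132964.5 bp on III to 757518.5 bp on V. The 3 longest gaps on X differed in what the replicate lists held in them. The gap from 3159882 to 3371334 held 35 entries of replicate 1 and 44 of replicate 2, or 16.6 and 20.8 per 100 kb, against 27.4 per 100 kb over all of X in both. Its best entry ranked 1603 in replicate 1 and 7071 in replicate 2. The gap from 1128858 to 1302292 was alike, with 31 and 30 entries. The gap from 1627340 to 1837853 was nearly empty in both, with 3 entries in replicate 1 and 10 in replicate 2 over 210.5 kb, the best of them ranked 16225 and 15023.

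Close neighbours were somewhat fewer on X. A second combined centre lay within 1 kb of 15.3% of X regions (interval 13.1 to 17.7), against 18.7% of autosomal regions and 18.1% of all. The difference was -3.38 points (-5.80 to -0.725), and the lowest autosome had 17.45%. Within 2 kb the shares were 34.2% on X and 39.3% on autosomes, with 38.5% of all, a difference of -5.12 points (-8.38 to -1.76). Within 500 bp they were 3.18% and 4.09%, with 3.95% of all, and the interval of the difference included 0 (-2.02 to 0.511). The chromosomes stood in a different order by this share than by density, and the part of density in it was not tested. IV, with 54.2 regions per Mb, had 22.3% within 1 kb, and V, with 41.1 per Mb, had 18.0%. Regions with no other centre within 20 kb made up 10.3% on X and 7.68% on autosomes, with 8.09% of all. Single autosomes ran from 4.09% on III to 12.9% on V, so X lay within their range.

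X had 10 runs of 3 or more regions whose neighbouring centres were at most 1 kb apart, and 32 regions in them. That was 3.397% of the X regions, against 3.376% to 6.65% on the autosomes, which had 9 to 19 such runs each. The longest on X, from 6741058 to 6744177, held 5 regions in 3120 bp, which equals the longest run on any chromosome. Their combined ranks from left to right were 2393, 2799, 949, 1215 and 637. The others described here held 3 regions each. The run from 7951504 to 7953126 had ranks 693, 5652 and 3138. The run from 1503705 to 1505127 had 1988, 2313 and 772. Its regions ranked 1988 and 2313 overlap and have the same best partners, ranked 1871 in replicate 1 and 2141 in replicate 2. The runs from 4142137 to 4143650 and from 16611485 to 16612689 had best ranks of 879 and 1019. In the latter the regions ranked 1019 and 3643 overlap. These 4 runs were the ones with the best-ranked regions among the runs of 3, so a strong member in each follows from that choice.

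The intervals on X took the list's commonest width more often than those on autosomes, also at equal rank. In the combined list that width is 350 bp, and 77.0% of X regions had it (interval 74.2 to 79.5), against 61.1% on autosomes and 63.6% of all regions. No autosome was above 63.2%. Since weak entries nearly all have this width and X has fewer strong ones, shares were also compared within bands of 250 ranks, with the autosomes weighted to the ranks of X. The difference was then 4.92 points (normal interval 3.34 to 6.51), from 77.0% on X and 72.0% on autosomes. It lay where the lists pass from variable to fixed width. In rank group 2 186 of 252 X regions (73.8%) had the common width, against 54.5% on autosomes, where the values ranged from 50.5% to 57.9%. In rank group 1 it was 1 of 144 X regions (0.694%), against 1.10% on autosomes, and in rank group 4 it was 99.6% on X, against 98.7%.

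The replicate lists, each with a commonest width of its own, showed the same. In replicate 1, where the width is 370 bp, 85.8% of X entries among the best had it, against 73.2% on autosomes and 75.2% of all. At matched rank the autosomal share was 82.65% and the difference 3.18 points (normal interval 2.01 to 4.36). In replicate 2, with 320 bp, the shares were 89.5% on X, 78.2% on autosomes and 79.9% of all. At matched rank the autosomal share was 86.8% and the difference 2.68 points (1.56 to 3.81). In the bands where the autosomal share lay between 5 and 95%, X was higher in 8 of 8 in the combined list, in 5 of 6 in replicate 1 and in 4 of 4 in replicate 2. Whether read coverage moves with this was not tested, since the lists hold no coverage. The widest X regions were at 8036018 to 8036775 (758 bp, combined rank 265), 14525479 to 14526195 (717 bp, rank 272) and 2996748 to 2997433 (686 bp, rank 189).

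**Figure D5:**
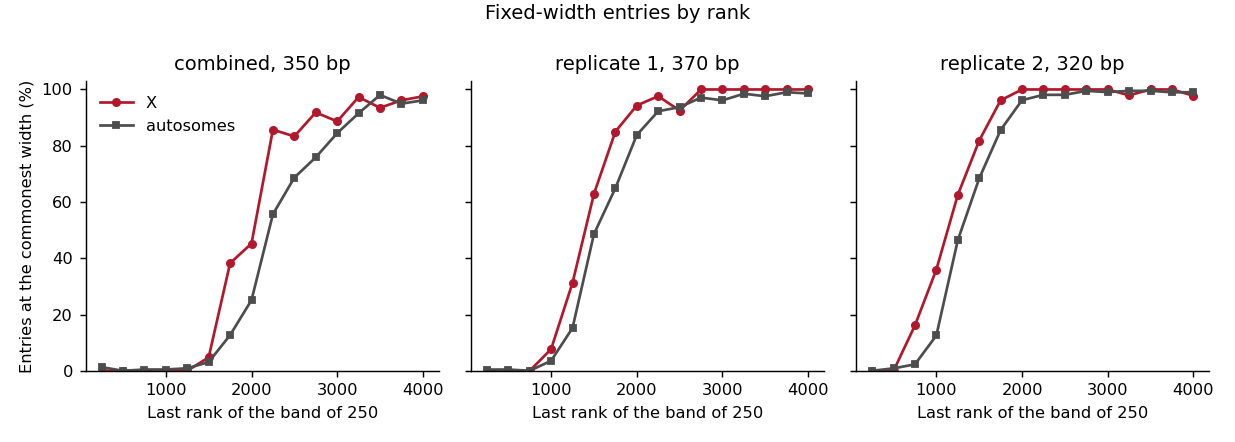
Percentage of entries that have the commonest width of their list (vertical axis) in bands of 250 ranks (horizontal axis, last rank of the band, shown to 4000) for X and for autosomes; panels are the combined list (350 bp), replicate 1 (370 bp) and replicate 2 (320 bp). In each panel X reaches high shares at better ranks than the autosomes: in combined ranks 2001 to 2250 it is 85.7% on X and 55.7% on autosomes.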

How the data were processed

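There were 3 peak lists, from replicate 1, replicate 2 and both combined. Positions are on WormBase WS220, per the file headers, and the source field names SPP, a peak caller, with IDR. The aligner, versions, thresholds, use of the input and the way the lists were combined have no source here (not given in the sources used here). Each deposited entry has a score, whose scale the files do not name. Ranks are the numbers in the peak names. Intervals with the same chromosome, start and end were counted once, at their best rank, and entries outside the 6 nuclear chromosomes were left out. A region was placed by its centre. Chromosome spans are the largest end in any list. A partner is the best-ranked entry that overlaps by at least 1 bp. For values per replicate the 6064 best entries were used, as many as the combined list has. Regions named are the 15 best, the 5 of the best 100 whose replicate ranks differ most, the 3 longest gaps, the 3 fullest and emptiest bins (4 with a tie), the 5 runs with most regions (ties, here among the runs of 3, by best rank), the 5 best shared entries outside the combined list, and the 3 widest and last-ranked regions; the bin with most strong regions was picked after its value was seen. The members, comparisons and lists were chosen with earlier results of these data known. The overlap steps were tested on simulated intervals. Python 3.11.15, pandas 2.3.3 and numpy 2.4.6 were used.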

Additional observations from a re-analysis of the deposited data

How the results depend on the processing

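Of 41 alternative values, 14 stayed within the counting interval of the main value or, for the variation over bins, within the spread between replicates. The share of X regions in rank group 1 was 0.570 of the autosomal share. It was 0.459 of it for the 500 best and 0.818 for rank groups 1 and 2 together. For the highest score, the loosest of these cuts with 73.5% of all regions, it was 0.930. Partners in both replicates (98.8%) were 85.2% with reciprocal 50% overlap, 96.1% with the centre inside the entry and 69.5% within the best entries of both. Spearman's rank correlation between the replicates (0.70) was 0.60 with reciprocal overlap, 0.329 for scores and 0.503 without rank group 1. Scores hold many ties and do not fall steadily with rank, so their value is not a like measure of agreement in strength. Shared X entries were 64.3% of replicate 1 and 66.2% of replicate 2 with reciprocal overlap, and 59.05% and 56.3% over all entries. Close neighbours (15.3%) were 3.18% within 500 bp, 34.2% within 2 kb and 12.8% with overlapping intervals merged. The share at the commonest width (77.0%) was 0.694% in rank group 1 and 99.6% in rank group 4. Its excess over autosomes (15.8 points) was 4.92 at matched rank. In the separate replicate lists, each at its own commonest width, the share was 85.8% to 89.5%. The excess there was 11.2 to 12.6 points, or 2.68 to 3.18 at matched rank. The variation over bins was 0.256 in 500 kb bins and 0.212 to 0.217 in the separate replicate lists. No combined list was remade without 1 replicate. The cause was not tested. No paired analysis was possible because the input samples have no peak list here. The matched widths, the variation over bins, the score and the rank groups for width and correlation were added after seeing the data.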

Other observations

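Some X entries were shared by the replicates and overlapped no combined region. Counting each replicate 2 partner once, there were 1555 such pairs, most of them weak, and 182 had both ranks within 10000. They came from 1763 of the 4862 entries of replicate 1 on X. No autosomal count stands beside these values, so they do not set X apart. The best pair had its replicate 1 entry at 9743403 to 9743772 (rank 1580) and its replicate 2 entry at 9743512 to 9743625 (rank 1370). The next, by the larger of the 2 ranks, were at 3049233 to 3049602 (ranks 2991 and 3475 in replicates 1 and 2), 15100452 to 15100821 (3721 and 3559), 13141331 to 13141700 (2331 and 3852) and 1012501 to 1012870 (4356 and 3506), given by their replicate 1 positions. The files do not record why the combined list leaves them out.

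The 2 X intervals that the combined list holds 2 times carried unlike ranks. The interval at 8036018 to 8036775 is listed at ranks 265 and 3978, and that at 10770921 to 10771384 at ranks 683 and 4809.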
